A study of Mus musculus with 24 samples.

Results

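The transcripts described here encode the adrenergic receptors of the heart and the first steps of their signalling: the receptors Adrb1, Adrb3, Adra1a and Adra1b, the stimulatory G protein subunit Gnas, the adenylyl cyclases Adcy5 and Adcy6, and the receptor kinase Grk5. They are the 8 genes, of 52350 in the count files, whose Ensembl identifier maps to one of these symbols. The rule that picks them uses their names alone, but the names were chosen with earlier results of these data known. Reads sufficed to test 7 of the 8, and the exception was Adrb3.

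RNA was sequenced from the hearts of 24 mice, all wild-type C57Bl/6 males, 12 weeks old, on a cycle of 12 h light and 12 h dark. Zeitgeber time, ZT, is given in hours since the lights came on, so ZT0 opens the rest phase of a mouse and ZT12 its active phase. ZT0-SED and ZT12-SED are sedentary mice at those times, and ZT0-EX and ZT12-EX are mice run once on a treadmill at those times, for 60 min at a speed of 10 m/min on a grade of 0%. Each group holds 6 mice, 3 sequenced on each of 2 flow cells (replicates 1 to 3 on flow cell 1, replicates 4 to 6 on flow cell 2). The labels say that mice were first habituated to the treadmill, without saying whether this held for the sedentary groups, and that handling in the dark was under red light. How long after running the hearts were taken is not stated in the labels, and heart tissue mixes cardiomyocytes with vessels, nerves, fat and blood.

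Noradrenaline from cardiac sympathetic nerves and adrenaline from the adrenal gland act on these receptors. The beta-1 receptor is the main adrenergic receptor of cardiomyocytes: it couples to the stimulatory G protein, adenylyl cyclase makes cyclic AMP, and protein kinase A then raises the rate and force of the beat. Alpha-1 receptors couple instead to Gq proteins and phospholipase C, and receptor kinases with arrestins switch occupied receptors off.

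The sequences just upstream of the transcription start are given for the receptor genes that passed a test below, Adrb1 with exercise and Adra1b with time of day, and come from RefSeq on build GRCm38.p6, which held an entry for 5 of the 8 genes. Each run is the 250 bases before the annotated start, read 5′ to 3′ on the strand of the gene. Capitals mark matches to a GC box (GGGCGG, read CCGCCC on the other strand) or to the core of the cyclic AMP response element (TGACG). Adrb1 lies on the plus strand at chr19:56721867-56722116, and Adra1b on the minus strand with 2 annotated starts, at chr11:43836490-43836739 and, farther upstream, at chr11:43901238-43901487.
Adrb1: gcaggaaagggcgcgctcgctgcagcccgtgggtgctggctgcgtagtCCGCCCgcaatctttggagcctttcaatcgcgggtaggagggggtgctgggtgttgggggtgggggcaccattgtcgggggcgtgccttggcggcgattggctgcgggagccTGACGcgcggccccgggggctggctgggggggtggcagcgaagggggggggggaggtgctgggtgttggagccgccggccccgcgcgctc
Adra1b start 1: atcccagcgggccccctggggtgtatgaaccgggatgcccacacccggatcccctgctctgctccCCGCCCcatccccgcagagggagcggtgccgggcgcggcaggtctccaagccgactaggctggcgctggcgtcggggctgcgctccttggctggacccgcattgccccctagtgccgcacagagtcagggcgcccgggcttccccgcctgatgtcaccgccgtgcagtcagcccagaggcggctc
Adra1b start 2: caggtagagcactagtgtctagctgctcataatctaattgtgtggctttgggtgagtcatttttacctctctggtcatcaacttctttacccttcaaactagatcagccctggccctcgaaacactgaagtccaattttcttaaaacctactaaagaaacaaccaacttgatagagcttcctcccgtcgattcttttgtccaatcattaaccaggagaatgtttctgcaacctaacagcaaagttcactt
G and C made up 74% of the Adrb1 window, 72.8% of the first Adra1b window and 41.6% of the second, against a median of 52.4% over all 32851 RefSeq promoter windows of that length. The motifs named here were searched on both strands. In the Adrb1 window a GC box began 202 bases before the start and TGACG 90 bases before it, and in the first Adra1b window a GC box began 185 bases before the start. These letters are common, since 32.7% of all windows held GGGCGG and 17.8% held TGACG. None of the 3 windows held the E-box CACGTG (6.02% of all windows), the D-box TTATGTAA (0.819%), the nuclear receptor core AGGTCA (14% of windows) or the full TGACGTCA (1.55%, every match of which also holds TGACG).

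Library totals ran from 9697334 to 23067191 counts, and the values below are read counts relative to the scaled library total (CPM) after TMM scaling. The flow cells differed: mitochondrial transcripts took 25.5% to 55.1% of counts on flow cell 1 and 2.70% to 23.7% on flow cell 2, and the Spearman correlation across genes between relative level and transcript GC content ran from -0.82 to 0.24 on flow cell 1 and from 0.44 to 0.70 on flow cell 2. It was lowest in the ZT12 libraries of flow cell 1, where the sedentary hearts ranged from -0.82 to -0.76 and the exercised hearts from -0.72 to -0.58. Of the genes described here, Adcy5, Adrb1 and Gnas lie at percentiles 95.1, 93.5 and 90.5 of transcript GC content, Adcy6, Adrb3 and Adra1b at 80.7, 80.05 and 76.2, and Adra1a and Grk5 at 52.8 and 43.6. Fast skeletal muscle transcripts stood out in 6 libraries (the 3 of ZT0-EX on flow cell 2, and ZT0-SED 6, ZT12-SED 6 and ZT12-EX 6), and 3 libraries correlated least with the rest (ZT12-SED 1, ZT12-SED 2 and ZT12-EX 4). All 10 cardiomyocyte markers were detected in every library and none passed a test in any comparison of groups.

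Divided by exon length, the cascade had a steep order of abundance, with the G protein far above the receptors. In ZT0-SED the mean level per kilobase (kb) was 60.0 CPM per kb for Gnas, 14.5 for Adcy6, 5.30 for Grk5, 5.07 for Adra1b, 4.18 for Adcy5, 2.89 for Adrb1, 0.874 for Adra1a and 0.066 for Adrb3. The ranges of the 6 mice were apart between Gnas and Adcy6, Adcy6 and Grk5, Adrb1 and Adra1a, and Adra1a and Adrb3. Neighbours from Grk5 to Adrb1 in that order overlapped. At ZT12 fewer neighbours were apart: in ZT12-SED and in ZT12-EX only Gnas stood clear of the next gene and only Adrb3 of the one above it. The place of Adra1b moved from the fourth in ZT0-SED (5.07 CPM per kb) to the sixth in ZT12-SED (2.48), and Adrb1 from the sixth in ZT0-EX (2.37) to the seventh in ZT12-EX (1.37).

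**Figure D1:**
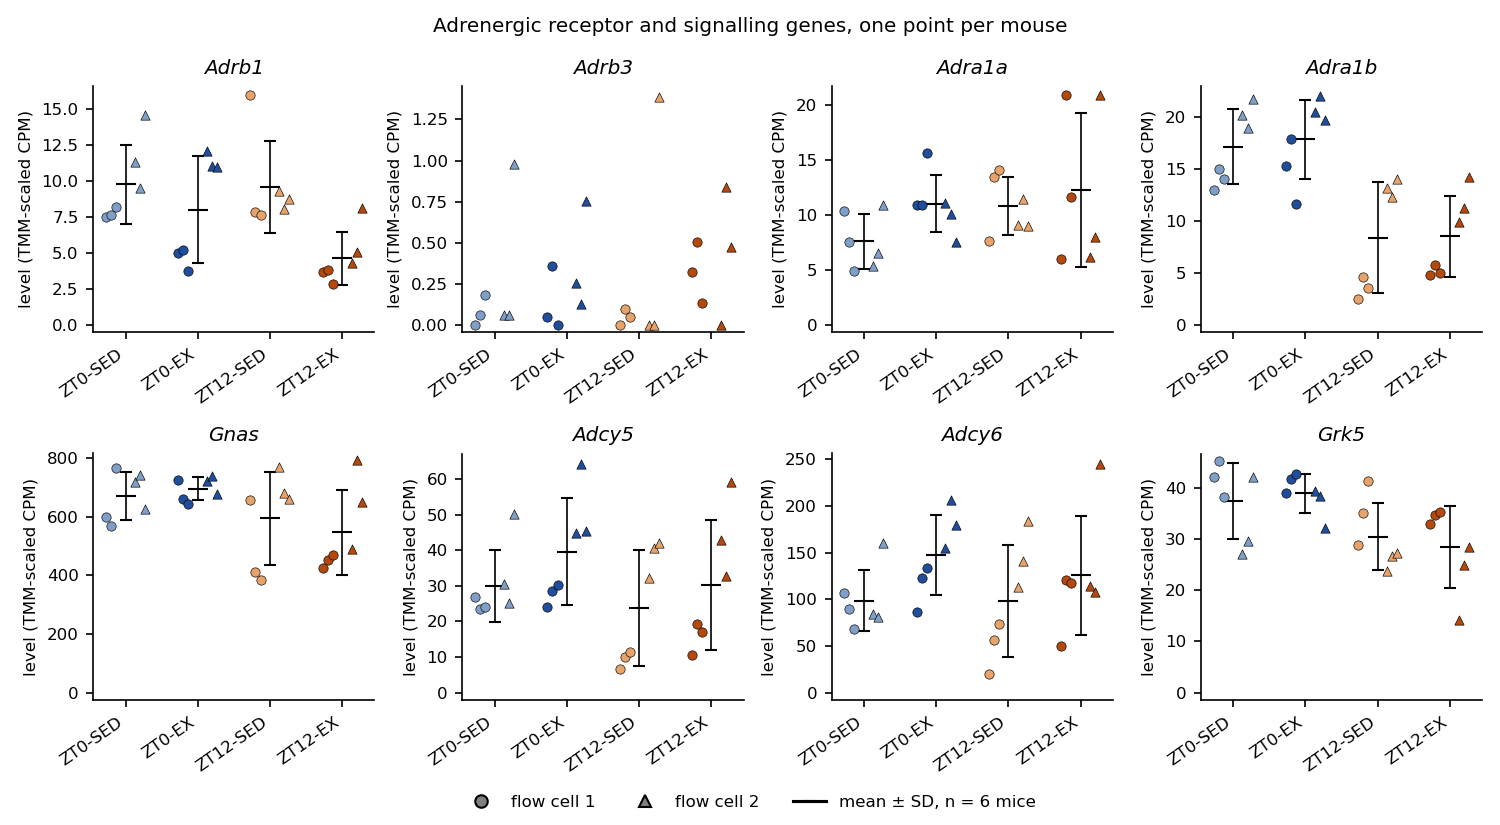
Level of each of the 8 genes in each heart (vertical axis, CPM) by group (horizontal axis), with circles for flow cell 1, triangles for flow cell 2 and, except for the sparsely counted Adrb3, the mean ± SD of 6 mice. Adra1b is lower at ZT12 than at ZT0 on both flow cells, and Adrb1 is lowest in ZT12-EX, at 2.84 to 8.09 CPM.

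Adra1b encodes the alpha-1B adrenergic receptor, one of the Gq-coupled receptors of cardiomyocytes. In ZT0-SED its level was 13.0, 15.0 and 14.0 CPM on flow cell 1 and 20.1, 19.0 and 21.7 CPM on flow cell 2. The ZT12-SED hearts held 2.49, 4.66 and 3.60 CPM on flow cell 1 and 13.2, 12.3 and 14.0 CPM on flow cell 2. Every ZT12-SED heart was therefore below every ZT0-SED heart of its flow cell, while across flow cells the groups overlapped. In the exercised mice the level was 15.3, 17.9 and 11.7 CPM on flow cell 1 and 20.5, 21.99 and 19.7 CPM on flow cell 2 at ZT0, against 4.81, 5.75 and 5.05 CPM and 9.95, 11.3 and 14.3 CPM at ZT12. These groups too did not overlap on either flow cell, a pattern that 2.57% of all genes showed in this direction in sedentary mice and 2.79% in exercised mice.

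Adra1b fell by 1.20 ± 0.21 (SE, n = 6 per group) on the log2 scale from ZT0 to ZT12 in sedentary mice, a level 2.29-fold lower (adjusted p = 0.00154). In exercised mice it fell by 1.18 ± 0.21, or 2.26-fold (adjusted p = 0.00259). The comparisons share no library. Among the 7 genes tested, Adra1b was the one that passed in sedentary mice, where 5.2% of all genes passed (2.74% as lower), and again the one that passed in exercised mice, where 1.65% passed (0.837% as lower). Of all 15294 genes tested, 97 (0.634%) were lower at ZT12 in both. Both calls held without each of the 24 libraries in turn and with a GC correction, a smooth of level on transcript GC content entered as an offset for each library (-0.84, adjusted p = 0.00193, and -0.99, adjusted p = 0.00032), and both were lost without the flow cell term (adjusted p = 0.256 and 0.348) and on flow cell 2 alone.

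The size of that difference depended on the flow cell. In sedentary mice flow cell 1 alone gave a log2 difference of -1.96 (adjusted p = 0.00074) and flow cell 2 alone -0.63 (adjusted p = 0.282), with 3 mice per group. A test of the difference between them gave 1.31 ± 0.29 (adjusted p = 0.0111), in a test that 13.1% of all genes passed (9.99% as a higher value on flow cell 2). With the GC correction this fell to 0.50 (adjusted p = 0.610), and without the 3 least correlated libraries it was 1.34 (adjusted p = 0.0836). In exercised mice the values were -1.52 (adjusted p = 0.0059) on flow cell 1 and -0.76 (adjusted p = 0.192) on flow cell 2, and the difference of 0.72 ± 0.28 did not pass (adjusted p = 0.306). In bulk hearts, fewer cells of a type and less RNA per cell cannot be told apart. The cardiomyocyte markers beside it had a median log2 difference of -0.59 in sedentary and -0.12 in exercised mice with 0 of 10 passing (summed level 20778 to 65365 CPM in ZT12-SED and 44115 to 92444 in ZT0-SED, 23318 to 197282 in ZT12-EX and 45745 to 79194 in ZT0-EX, no marker at 0). Among 10 endothelial markers, which summed to 468 to 1047 CPM in ZT12-SED and 858 to 1092 in ZT0-SED, 2 were lower in sedentary mice, and 0 in exercised mice. Among 10 smooth muscle and pericyte markers, which summed to 695 to 1414 CPM in ZT12-SED and 613 to 1078 in ZT0-SED, 1 was lower in sedentary mice, and 0 in exercised mice, and no marker of either list was at 0. Fibroblast markers, which summed to 1161 to 4110 CPM in ZT12-SED, 1315 to 2453 in ZT0-SED, 696 to 4098 in ZT12-EX and 986 to 2466 in ZT0-EX with none at 0, had 2 of 10 lower in sedentary mice and 2 of 10 lower in exercised mice (median log2 difference -0.073 and 0.21). Their part in the result was not tested.

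With exercise no difference in Adra1b passed the test. The log2 change was 0.068 ± 0.20 at ZT0 (adjusted p = 0.906, approximate 95% interval -0.33 to 0.47) and 0.088 ± 0.21 at ZT12 (adjusted p = 0.841, interval -0.33 to 0.50). At ZT12 flow cell 1 alone gave 0.54 (adjusted p = 0.194), with all 3 exercised hearts above all 3 sedentary hearts as for 13.2% of all genes, and flow cell 2 alone gave -0.13 (adjusted p = 0.904).

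**Figure D2:**
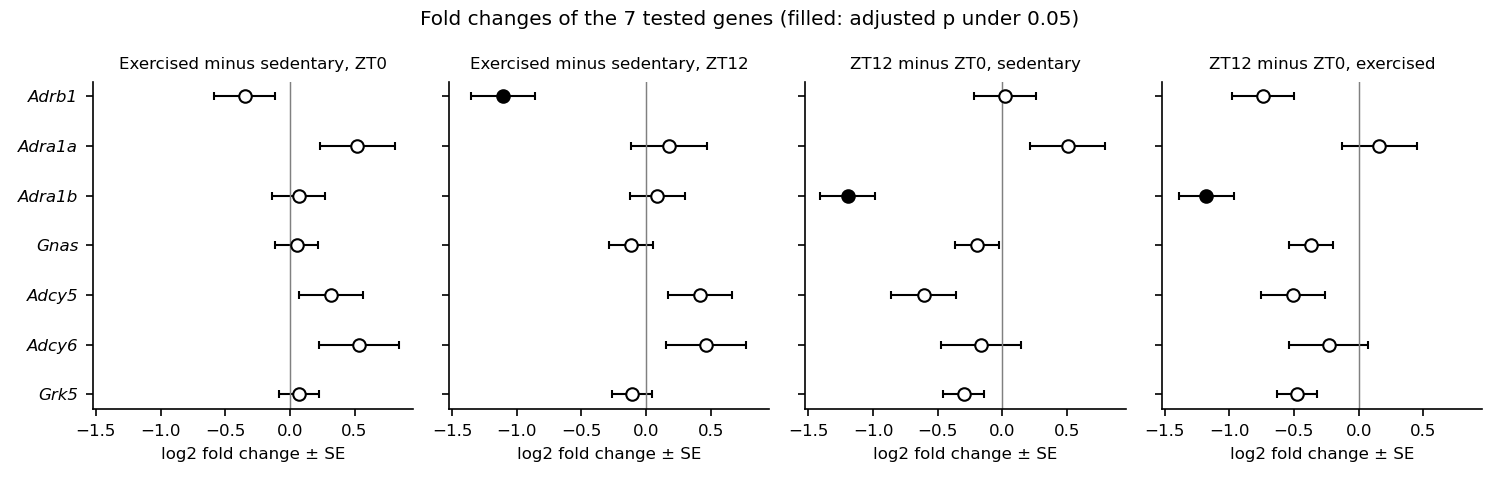
Log2 fold change ± SE (horizontal axis) of the 7 tested genes in the exercise comparisons at ZT0 and ZT12 and the time-of-day comparisons in sedentary and exercised mice, 6 mice per group, with filled points for an adjusted p under 0.05. The filled points are Adra1b in both time-of-day comparisons (-1.20 and -1.18) and Adrb1 with exercise at ZT12 (-1.11).

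Adrb1 encodes the beta-1 receptor, the main target of noradrenaline in the ventricle. The sedentary hearts at ZT12 held 15.9, 7.86 and 7.60 CPM on flow cell 1 and 9.33, 8.03 and 8.78 CPM on flow cell 2. After the bout at ZT12 the values were 3.68, 3.83 and 2.84 CPM on flow cell 1 and 4.33, 5.08 and 8.09 CPM on flow cell 2. On flow cell 1 all 3 exercised hearts were below all 3 sedentary hearts, as for 9.75% of all genes, and on flow cell 2 the highest exercised heart (8.09) passed the lowest sedentary heart (8.03). The group means were 9.59 ± 3.17 CPM (SD, n = 6) in ZT12-SED and 4.64 ± 1.84 in ZT12-EX.

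Adrb1 fell by 1.11 ± 0.25 on the log2 scale with exercise at ZT12, a level 2.15-fold lower, and passed by a narrow margin (adjusted p = 0.0492). Among the 7 genes tested it was the one that passed, in a comparison in which 0.294% of all genes passed (0.105% as lower). Flow cell 1 alone gave -1.53 (adjusted p = 0.0552) and flow cell 2 alone -0.55 (adjusted p = 0.852). The direction was the same under every alternative tried, but the call was lost under 10 of them, among them limma-voom (-0.99, adjusted p = 0.0787) and the fit without the 3 least correlated libraries (-0.65, adjusted p = 0.340), and was kept with DESeq2 (adjusted p = 0.00244) and without the libraries with skeletal muscle transcripts (-1.33, adjusted p = 0.0184). Leaving out a single library gave -1.23 to -0.83 with adjusted p from 0.0306 to 0.146, and the call was kept in 4 of 24 such fits, those without ZT12-SED 5, ZT12-SED 6, ZT12-EX 6 or ZT0-EX 3. Of these, ZT0-EX 3 is in neither group compared and acts through the model that all libraries share. Without ZT12-SED 1, the heart at 15.9 CPM, the change was -0.83 (adjusted p = 0.0961). The cardiomyocyte markers had a median log2 change of 0.58 in this comparison and none of 10 passed. The 8 atrial cardiomyocyte markers had a median of 1.53 with none passing (summed level 146 to 2630 CPM in the sedentary and 423 to 8911 in the exercised hearts, none at 0), the 7 adipocyte markers tested a median of 1.06 with none passing, and 1 of 10 macrophage markers was lower. Their part in the Adrb1 result was not tested.

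The rest-phase bout gave a smaller difference in Adrb1 that did not pass. ZT0-SED hearts held 7.47, 7.64 and 8.17 CPM on flow cell 1 and 11.3, 9.49 and 14.6 CPM on flow cell 2, and ZT0-EX hearts held 5.02, 5.23 and 3.75 CPM and 12.1, 11.0 and 11.0 CPM. On flow cell 1 the exercised hearts were all lower, as for 9.81% of genes, and on flow cell 2 the groups overlapped. The log2 change was -0.35 ± 0.24 (adjusted p = 0.574). The change at ZT12 minus the change at ZT0 was -0.76 ± 0.34 (unadjusted p = 0.0345, adjusted p = 0.571), so the bouts were not shown to differ in their effect on Adrb1. By time of day Adrb1 did not pass in sedentary mice (0.019 ± 0.24, adjusted p = 0.964) or in exercised mice (-0.74 ± 0.24, adjusted p = 0.139). The exercised difference passed with 2 surrogate variables, terms estimated from the data for unlabelled variation (-0.88, adjusted p = 0.00228), without the 3 least correlated libraries (-0.65, adjusted p = 0.0355) and without ZT12-SED 1 (adjusted p = 0.0378). Of the libraries left out there, only ZT12-EX 4 is in a group compared, and the others act through the model that all libraries share.

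Adra1a encodes the alpha-1A receptor, the other main alpha-1 receptor of the cardiomyocyte. Its median in sedentary mice was 7.07 CPM at ZT0 (4.90 to 10.9) and 10.3 at ZT12 (7.67 to 14.1), and in exercised mice 11.0 at ZT0 (7.61 to 15.7) and 9.82 at ZT12 (6.03 to 21.0). Over both flow cells all 4 groups overlapped, while on flow cell 1 the ZT0-EX hearts (10.9, 11.0 and 15.7 CPM) were above the ZT0-SED hearts (10.4, 7.58 and 4.90 CPM), as for 11.2% of all genes. ZT12-EX was the widest, with 21.0 and 20.9 CPM in replicates 2 and 6. No comparison passed: the log2 difference was 0.52 ± 0.29 with exercise at ZT0 (adjusted p = 0.523), 0.18 ± 0.29 with exercise at ZT12 (adjusted p = 0.753), 0.50 ± 0.29 by time of day in sedentary mice (adjusted p = 0.221) and 0.16 ± 0.29 in exercised mice (adjusted p = 0.852). The signs at ZT12 and in exercised mice turn under some settings given in the closing section.

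Read against each other within a heart, the alpha-1 receptor transcripts were closer to balance at ZT12. This ratio was chosen after the values were seen and is given as a description with no test. On flow cell 1 the log2 ratio of Adra1a to Adra1b per kb was -2.89 to -1.69 in ZT0-SED and 0.17 to 0.61 in ZT12-SED, so that Adra1a was the higher of the pair in all 3 ZT12-SED hearts there. On flow cell 2 it was -3.27 to -2.35 in ZT0-SED and -2.003 to -1.46 in ZT12-SED, with Adra1b higher throughout. The group means were -2.57 ± 0.56 (SD, n = 6) in ZT0-SED, -2.06 ± 0.63 in ZT0-EX, -0.72 ± 1.19 in ZT12-SED and -0.91 ± 0.98 in ZT12-EX. The difference ZT12 minus ZT0 in sedentary mice came to 2.65 among the hearts of flow cell 1 and 1.05 among those of flow cell 2, and in exercised mice to 1.39 and 0.92. The ratio had no GC correction, and Adra1b lies at percentile 76.2 of transcript GC content against 52.8 for Adra1a. In the ZT12-SED hearts of flow cell 1 the correlation of level with GC content was -0.82 to -0.76. Of these hearts ZT12-SED 1 and ZT12-SED 2 are among the least correlated with the rest, and the lowest Adra1b count was 13. The part of GC content in the ratio was not tested. The ratio also divides by the length of all annotated exons, 8.73 kb for Adra1a and 3.38 kb for Adra1b. Which isoforms these hearts express was not examined, so which of the pair is higher holds only for these lengths.

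**Figure D3:**
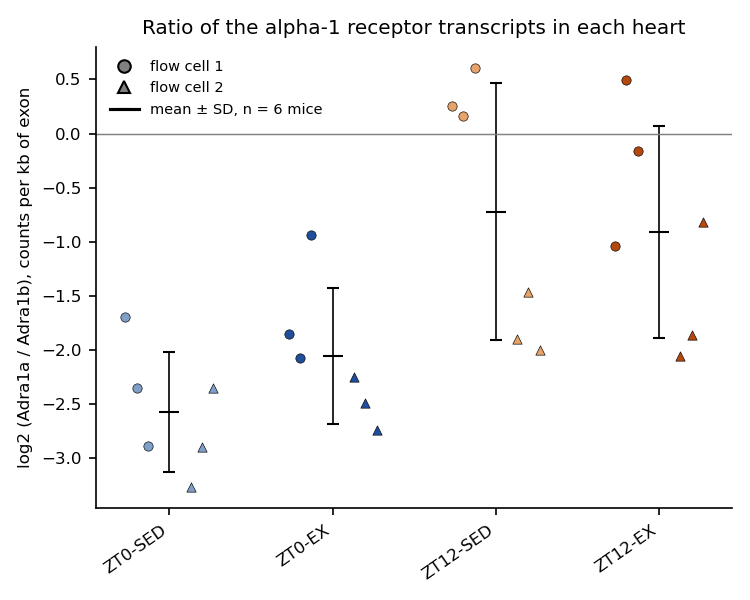
Log2 ratio of Adra1a to Adra1b per kb of exon (vertical axis) in each heart by group (horizontal axis), with circles for flow cell 1 and triangles for flow cell 2, where 0 means equal levels. The ZT12-SED hearts of flow cell 1 lie at 0.17 to 0.61, and all 6 ZT0-SED hearts lie at -1.69 or lower.

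Adrb3 encodes the beta-3 receptor, best known as the receptor that drives fat breakdown in adipocytes. Its reads were few, 119 counts over all 24 libraries, while a count of 3 corresponds to 0.130 to 0.575 CPM depending on the library. The highest counts were 23 in ZT12-SED 6, 20 in ZT0-SED 6, 14 in ZT12-EX 5 and 14 in ZT0-EX 6, and 6 libraries had a count of 0. High and low libraries were found in every group, so Adrb3 did not separate the groups. In the fit with no filter on low counts its log2 differences were 0.21 ± 1.00 with exercise at ZT0 (adjusted p = 1), 0.76 ± 0.99 with exercise at ZT12 (adjusted p = 0.795), 0.21 ± 1.03 by time of day in sedentary mice (adjusted p = 1) and 0.76 ± 0.95 in exercised mice (adjusted p = 0.816). With standard errors near 1 these estimates leave wide room in both directions.

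The level of Adrb3 followed the adipocyte hormone Adipoq, 1 of 10 listed adipocyte genes, across hearts. Adipoq stood at 23.2 CPM in ZT12-SED 6, 18.0 in ZT12-EX 5, 14.6 in ZT12-EX 1, 7.23 in ZT0-EX 6, 6.90 in ZT12-EX 6 and 6.55 in ZT0-SED 6, which include the 4 libraries with the most Adrb3 reads. Of these 4, ZT12-SED 6, ZT0-SED 6 and ZT0-EX 6 are among the libraries with fast skeletal muscle transcripts, and ZT12-EX 5 is not. Over the 24 libraries Pearson's r between the CPM values was 0.832 (permutation p = 5e-05) and Spearman's rho 0.740 (permutation p = 6e-05, adjusted to 0.00012 over 2 relations). The permutations over all 24 libraries also moved values between flow cells. Within flow cell 1 r was 0.594 (permutation p = 0.0574) with rho 0.634 (permutation p = 0.0314), and within flow cell 2 r was 0.870 (permutation p = 0.00021) with rho 0.824 (permutation p = 0.00149). Without the 2 libraries farthest from the median of Adipoq, r was 0.614 (permutation p = 0.00867). The mean log2 CPM of the 10 listed adipocyte genes gave r = 0.741 (permutation p = 3e-05) and rho = 0.705 (permutation p = 0.00024). Of those 10 genes 7 were tested and 1 was lower at ZT12 in sedentary mice. Their summed level, carried mostly by Fabp4, which other cells also express, ran in sedentary hearts from 961 to 2040 CPM at ZT0 and from 1185 to 1874 at ZT12, and in exercised hearts from 888 to 1131 at ZT0 and from 819 to 1968 at ZT12. Not every listed gene peaked with Adrb3. Fabp4 was highest in ZT0-SED 3 (1994 CPM), ZT12-EX 4 (1879 CPM) and ZT12-SED 1 (1865 CPM), where Adrb3 counts were 3, 0 and 0. Cidea was highest in ZT12-EX 4, at 46.9 CPM. The brown fat gene Elovl3 was at 0 in many libraries and Ucp1 in some. The part of adipocytes in the Adrb3 level was not tested.

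**Figure D4:**
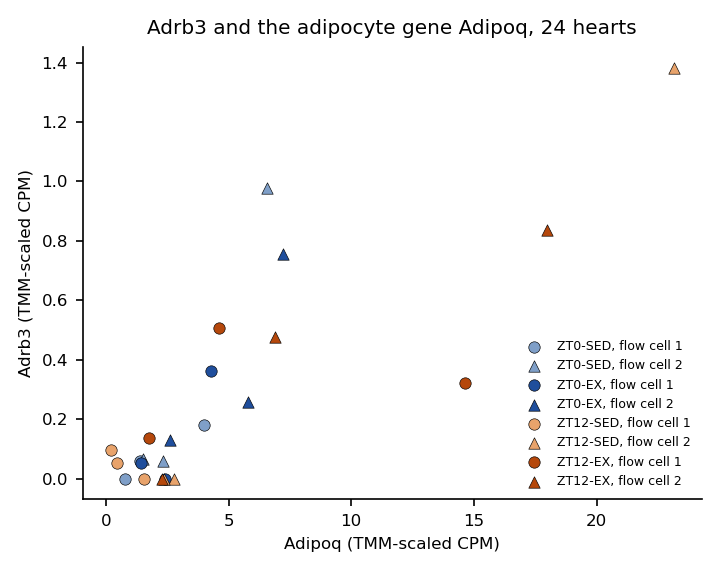
Adrb3 (vertical axis, CPM) against Adipoq (horizontal axis, CPM) in each of the 24 hearts, by group and flow cell. The heart with the most Adrb3, ZT12-SED 6 at 1.38 CPM, is also the one with the most Adipoq, at 23.2 CPM.

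Of the other adrenergic receptors, Adra1d, the alpha-1D receptor of vascular smooth muscle, passed a test in 1 comparison, time of day in exercised mice, which 1.65% of all genes passed. It was counted 5 to 33 times in each ZT0-EX library and 0 to 6 times in each ZT12-EX library (0.896 ± 0.536 and 0.154 ± 0.186 CPM, SD, n = 6), with no overlap on either flow cell, as for 2.79% of all genes. Its log2 difference in exercised mice was -2.47 ± 0.45 (adjusted p = 0.00305), which held without each library in turn and under 11 of 14 other settings. In sedentary mice the difference was -0.79 ± 0.40 (adjusted p = 0.168), and with exercise at ZT12 it was -1.45 ± 0.50 (adjusted p = 0.214). The alpha-2 receptors, which restrain noradrenaline release from nerve endings, were near the limit of counting: Adra2a had 0 or 1 count in each library, Adra2b group means of 0.725 to 0.980 CPM and Adra2c group means of 0.310 to 0.486 CPM.

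Gnas encodes the stimulatory G protein alpha subunit that links beta receptors to adenylyl cyclase. Its median level in sedentary mice was 672 CPM at ZT0 (569 to 767) and 659 at ZT12 (385 to 769), and in exercised mice 699.8 at ZT0 (644 to 738) and 479 at ZT12 (426 to 795). The groups overlapped, and the lowest values were those of ZT12 hearts of flow cell 1, with 411 and 385 CPM in ZT12-SED 2 and 3 and 426, 451 and 468 CPM in the ZT12-EX hearts. No comparison passed, with log2 differences of 0.052 ± 0.17 (exercise at ZT0, adjusted p = 0.913), -0.12 ± 0.17 (exercise at ZT12, adjusted p = 0.711), -0.20 ± 0.17 (time of day in sedentary mice, adjusted p = 0.404) and -0.37 ± 0.17 (in exercised mice, adjusted p = 0.316). Gnas is a complex locus that overlaps Nespas and Gm20721 on the opposite strand, and Gm20721 reached at most 65 counts in a library. Adcy6 and Adrb3 also overlap predicted genes on the opposite strand, Gm29331 with at most 2 counts in a library and Gm45470 with at most 3. Since the use of strand is not stated, reads of such pairs cannot be told apart.

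Adcy5 and Adcy6 encode the adenylyl cyclases that make most of the cyclic AMP in cardiomyocytes. Adcy6 had a median of 86.7 CPM at ZT0 (68.2 to 160) and 93.7 at ZT12 (19.9 to 184) in sedentary mice, and of 145 at ZT0 (86.0 to 206) and 116 at ZT12 (50.3 to 245) in exercised mice. Adcy5 had a median of 26.1 CPM at ZT0 (23.5 to 50.1) and 21.8 at ZT12 (6.71 to 42.0) in sedentary mice, and of 37.6 at ZT0 (23.9 to 64.3) and 26.03 at ZT12 (10.5 to 59.2) in exercised mice. Both cyclases spread widely within groups, and all groups overlapped. Exercise gave positive estimates that did not pass, for Adcy6 0.53 ± 0.31 at ZT0 (adjusted p = 0.532) and 0.46 ± 0.31 at ZT12 (adjusted p = 0.422), and for Adcy5 0.32 ± 0.25 (adjusted p = 0.620) and 0.42 ± 0.25 (adjusted p = 0.383). With 2 surrogate variables the ZT12 estimates of both turned sign.

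By time of day Adcy5 differed between the flow cells. On flow cell 1 the sedentary hearts held 26.9, 23.5 and 24.1 CPM at ZT0 and 6.71, 10.0 and 11.4 CPM at ZT12, with no overlap, as for 29.3% of all genes on that flow cell. On flow cell 2 they held 30.4, 25.3 and 50.1 CPM at ZT0 and 32.3, 40.6 and 42.0 CPM at ZT12, with the groups overlapping. All mice together gave -0.61 ± 0.25 (adjusted p = 0.108), flow cell 1 alone -1.41 (adjusted p = 0.0016) and flow cell 2 alone 0.11. The flow cells differed by 1.50 ± 0.40 (adjusted p = 0.0221), a difference of 0.058 with the GC correction and 1.25 (adjusted p = 0.170) without the 3 least correlated libraries. In exercised mice the difference was -0.51 ± 0.25 (adjusted p = 0.355). Adcy6 gave -0.16 ± 0.31 in sedentary mice (adjusted p = 0.725) and -0.23 ± 0.31 in exercised mice (adjusted p = 0.781). The log2 ratio of Adcy5 to Adcy6 per kb, again a description, had group means of -1.79 ± 0.21 in ZT0-SED, -2.01 ± 0.18 in ZT0-EX, -2.16 ± 0.44 in ZT12-SED and -2.23 ± 0.53 in ZT12-EX (SD, n = 6), so Adcy6 was the more abundant cyclase in each.

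Grk5 encodes a G protein-coupled receptor kinase that phosphorylates occupied receptors. In exercised mice it was 39.1, 41.7 and 42.8 CPM on flow cell 1 and 39.5, 38.5 and 32.1 CPM on flow cell 2 at ZT0, and 33.0, 34.7 and 35.3 CPM and 14.3, 24.996 and 28.5 CPM at ZT12. The ZT12 hearts were below the ZT0 hearts on both flow cells, as for 2.79% of all genes in this comparison. The log2 difference was -0.48 ± 0.16 and did not pass (adjusted p = 0.139), while it passed with DESeq2 (-0.46, adjusted p = 0.0301), with the GC correction (-0.50, adjusted p = 0.0305) and with 2 surrogate variables (-0.38, adjusted p = 0.00271). In sedentary mice the median was 40.2 CPM at ZT0 (27.1 to 45.2) and 28.0 at ZT12 (23.8 to 41.3), overlapping, with a difference of -0.30 ± 0.16 (adjusted p = 0.178, and 0.00548 with 2 surrogate variables). Exercise estimates were small, at 0.069 ± 0.16 at ZT0 (adjusted p = 0.864) and -0.11 ± 0.16 at ZT12 (adjusted p = 0.716).

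With exercise at ZT0, none of the 7 genes passed, in a comparison that 1.08% of all genes passed, and none had an unadjusted p under 0.05 with edgeR or passed with DESeq2 or limma-voom. None of the 7 passed the test of whether the exercise change differed between ZT12 and ZT0. There, 0% of all genes passed (1226 had an unadjusted p under 0.05 with edgeR, and 5 passed with DESeq2 and 0 with limma-voom), 1 of the 7 (Adrb1) had an unadjusted p under 0.05 with edgeR, and none passed with DESeq2 or limma-voom. The median log2 difference of the 7 genes, beside that of all genes tested, was 0.069 against -0.0080 with exercise at ZT0, 0.088 against 0.064 with exercise at ZT12, -0.20 against -0.0071 by time of day in sedentary mice and -0.48 against 0.018 in exercised mice. In exercised mice 6 of the 7 estimates were negative, the exception being Adra1a, and in sedentary mice 5 of 7, the exceptions being Adra1a and Adrb1. Of all 15294 genes tested, 7303 estimates were negative in exercised mice and 7729 in sedentary mice. With the GC correction Gnas (0.61), Adcy5 (0.085) and Adcy6 (0.24) turned positive in sedentary mice, and no sign turned in exercised mice.

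Levels of most of these genes differed between the flow cells. Between flow cell 2 and flow cell 1, 68.1% of all genes tested passed, 34.1% as higher and 34% as lower, and so did 6 of the 7 here, 5 as higher and 1 as lower. Adcy5 (1.23 ± 0.18, adjusted p = 4.96e-06), Adra1b (0.98 ± 0.15, adjusted p = 8.12e-06), Adcy6 (0.80 ± 0.22, adjusted p = 0.00288), Adrb1 (0.61 ± 0.17, adjusted p = 0.0034) and Gnas (0.31 ± 0.12, adjusted p = 0.0242) were higher on flow cell 2. With the GC correction the estimates of Adrb1, Gnas and Adcy5 turned negative, and of these only Gnas passed (adjusted p = 0.00054). With 2 surrogate variables those of Adra1b, Adcy5 and Adcy6 turned negative, and of these only Adcy6 passed (adjusted p = 0.0234). Without the libraries with skeletal muscle transcripts Adrb1 (0.24, adjusted p = 0.272) and Adcy6 (0.53, adjusted p = 0.106) did not pass. Grk5 was lower on flow cell 2 (-0.39 ± 0.11, adjusted p = 0.00362) and Adra1a did not pass (-0.20 ± 0.21, adjusted p = 0.404). With so high a share over all genes, these counts say nothing particular about the receptors.

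The remaining genes of the pathway, 129 in 12 roles of which 124 were tested, are given by counts beside the share of all genes. With exercise at ZT0, 2 of the 124 were lower and 0 higher (1.08% of all genes passed), and with exercise at ZT12, 0 passed (0.294% of all genes; 24 had an unadjusted p under 0.05 with edgeR, and 1 passed with DESeq2 and 0 with limma-voom). By time of day 3 were higher and 3 lower at ZT12 in sedentary mice (5.2% of all genes passed), and 2 were higher and 2 lower in exercised mice (1.65% of all genes). For exercise at ZT12, the unadjusted, DESeq2 and limma-voom counts have no matching share of all genes beside them, since 0.294% is for the adjusted p of edgeR. Nothing particular to the pathway is read from any of these counts. None passed the test of exercise by time of day with edgeR, DESeq2 or limma-voom (13 had an unadjusted p under 0.05 with edgeR). The median log2 difference of the 124 was 0.12 with exercise at ZT0, 0.045 with exercise at ZT12, 0.10 by time of day in sedentary mice and -0.070 in exercised mice.

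**Figure D5:**
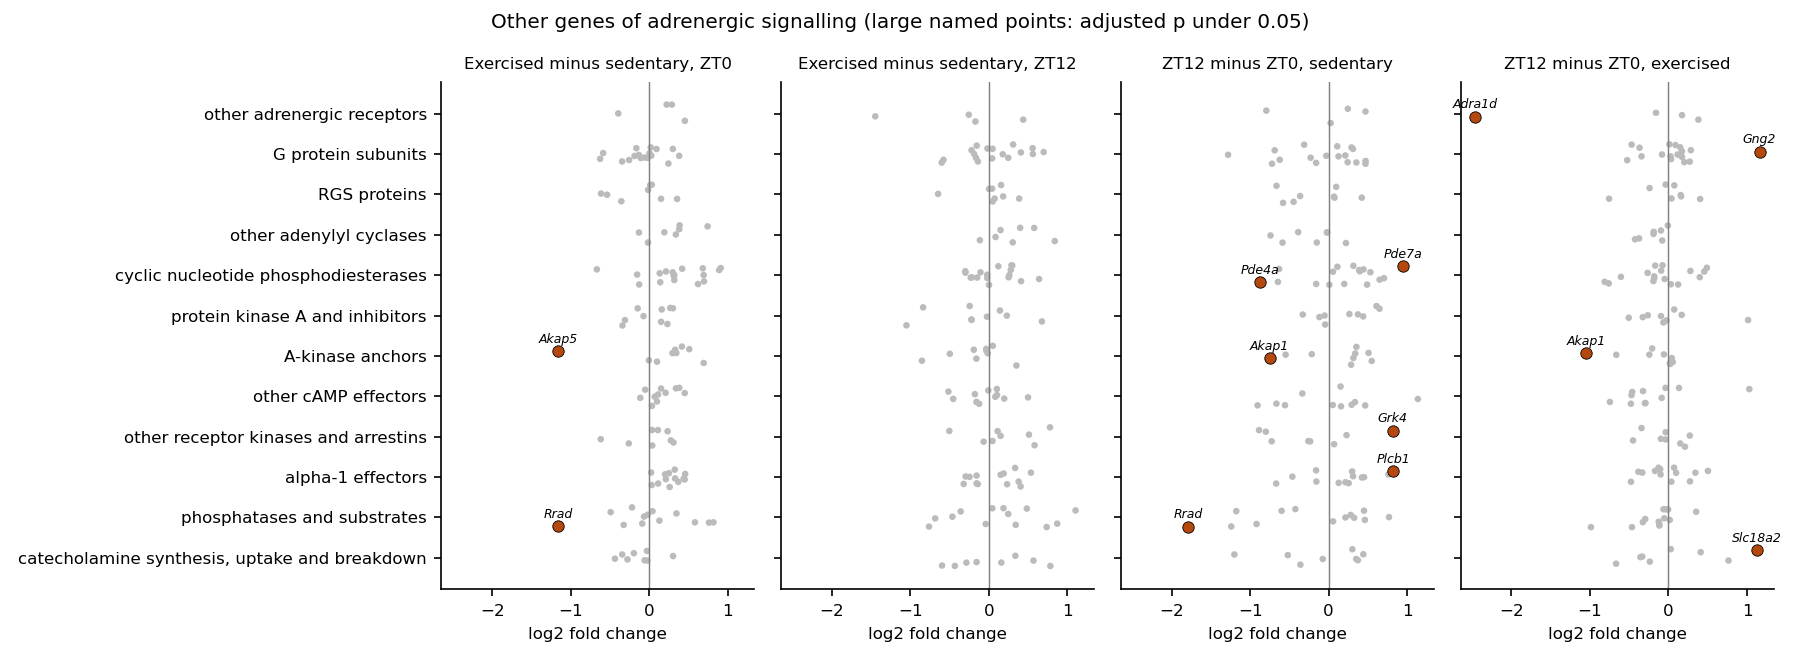
Log2 fold changes (horizontal axis) of the 124 other pathway genes by role (vertical axis) in the exercise comparisons at ZT0 and ZT12 and the time-of-day comparisons in sedentary and exercised mice, with genes past an adjusted p of 0.05 named. The named genes number 2, 0, 6 and 4 in these comparisons, and Rrad, at -1.16 and -1.79, is named in the first and in the sedentary time-of-day comparison.

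Among phosphatases and substrates, 1 of 13 passed with exercise at ZT0, where 1.08% of all genes passed. This was Rrad, a small GTPase that restrains the cardiac L-type calcium channel until protein kinase A phosphorylates it. Rrad was at 101 ± 34.2 CPM in ZT0-SED and 52.9 ± 25.2 CPM in ZT0-EX (SD, n = 6), with no overlap on either flow cell, as for 2% of all genes, and a log2 change of -1.16 ± 0.27 (adjusted p = 0.0317). It was also lower at ZT12 in sedentary mice, at 39.2 ± 28.7 CPM and a log2 difference of -1.79 ± 0.28 (adjusted p = 0.000377), again with no overlap on either flow cell (2.57% of all genes). The flow cells differed in size, since mean log2 CPM differed by time of day by -2.63 among flow cell 1 hearts and by -0.80 among flow cell 2 hearts, and with exercise at ZT0 by -1.43 and -0.59 respectively. Both comparisons use the same ZT0-SED hearts. The time-of-day call held without each of the 24 libraries in turn, the exercise call in 16 of 24. Skeletal muscle transcripts mark 3 of the ZT0-EX libraries and 1 of the ZT0-SED libraries, and their 12 markers had a median log2 change of 1.68 with exercise at ZT0 (summed level 11.1 to 720 CPM in ZT0-SED and 13.5 to 3118 in ZT0-EX). Without the libraries that hold them Rrad was at -1.12 (adjusted p = 0.510). Among 10 macrophage markers 2 were lower in that comparison (summed level 510 to 835 CPM in ZT0-SED and 424 to 705 in ZT0-EX), and among 10 fibroblast markers 1 was (1315 to 2453 and 986 to 2466), with none at 0. Their part in the calls at ZT0 was not tested.

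The A-kinase anchors place protein kinase A beside its targets. Of the 9 tested, Akap5 passed with exercise at ZT0 (as did 1.08% of all genes). Akap1 passed by time of day in sedentary mice (5.2% of all genes) and in exercised mice (1.65%). Akap5, which anchors the kinase at the plasma membrane near beta receptors and cyclase, fell with exercise at ZT0 from 3.53 ± 1.92 to 1.58 ± 0.31 CPM (log2 change -1.16 ± 0.28, adjusted p = 0.0349, kept in 15 of 24 fits without 1 library, and -1.08 with adjusted p = 0.511 without the libraries with skeletal muscle transcripts). At ZT12 its change was -0.85 and did not pass (adjusted p = 0.214). Akap1, the anchor of the outer mitochondrial membrane, was lower at ZT12 in exercised mice, at a mean of 49.2 CPM (21.0 to 95.5) against 99.1 (74.1 to 124), with no overlap on either flow cell, as for 2.79% of all genes (-1.05 ± 0.22, adjusted p = 0.0103, kept in 24 of 24 fits), and in sedentary mice (-0.75 ± 0.22, adjusted p = 0.0465, kept in 7 of 24). With the GC correction it was -0.93 in exercised mice (adjusted p = 0.0141) and -0.42 in sedentary mice (adjusted p = 0.267).

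Of 17 phosphodiesterases, the enzymes that break down cyclic AMP and cyclic GMP, 1 rose and 1 fell by time of day in sedentary mice, where 5.2% of all genes passed, and none passed in the other comparisons. Pde7a rose from 28.5 ± 9.33 to 56.9 ± 27.3 CPM (0.94 ± 0.28, adjusted p = 0.0486) and Pde4a fell from 31.7 ± 11.0 to 19.5 ± 11.8 CPM (-0.88 ± 0.25, adjusted p = 0.0452), each kept in 8 of 24 fits without 1 library. Taken by flow cell, first 1 and then 2, mean log2 CPM differed by 1.17 and 0.69 for Pde7a and by -1.59 and -0.28 for Pde4a. Of 8 other receptor kinases and arrestins, Grk4 rose in the same comparison from 1.77 ± 0.25 to 3.41 ± 1.85 CPM (0.81 ± 0.23, adjusted p = 0.0448, kept in 10 of 24), a difference of 1.38 among the hearts of flow cell 1 and 0.13 among those of flow cell 2. Of 13 alpha-1 effectors, Plcb1, a phospholipase C downstream of Gq, rose from 5.40 ± 1.24 to 10.0 ± 3.78 CPM with no overlap on either flow cell, as for 2.39% of all genes (0.82 ± 0.23, adjusted p = 0.0425, kept in 8 of 24). With the GC correction Pde4a (-0.32, adjusted p = 0.353), Grk4 (0.56, adjusted p = 0.121) and Plcb1 (0.55, adjusted p = 0.0827) did not pass. In that fit Rrad still passed by time of day in sedentary mice (-1.04, adjusted p = 0.000818).

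In exercised mice, where 1.65% of all genes passed, the genes higher at ZT12 were Gng2 and Slc18a2. Gng2, 1 of 17 other G protein subunits and a gamma subunit, was at 21.4 ± 10.4 against 9.65 ± 4.03 CPM (1.16 ± 0.25, adjusted p = 0.0141, kept in 22 of 24). Slc18a2, which loads monoamines into vesicles and was 1 of 8 genes of catecholamine synthesis, uptake and breakdown, was at 5.25 ± 3.50 against 2.48 ± 1.31 CPM (1.12 ± 0.29, adjusted p = 0.0457, kept in 9 of 24). The RGS proteins (8 tested), other adenylyl cyclases (7), protein kinase A subunits and inhibitors (9) and other cyclic AMP effectors (11) held none of the genes that passed in these comparisons.

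The genes most like each receptor were taken as the 3 with the highest Pearson correlation of log2 CPM over the 24 libraries after subtraction of flow cell means, among 11462 genes. For Adra1b these were Rxrg (0.958), Thra (0.957) and Col15a1 (0.955), which encode a retinoid X receptor, a thyroid hormone receptor and a collagen. All 3 were lower at ZT12. In sedentary and exercised mice the log2 differences were -0.88 and -0.78 for Rxrg (adjusted p = 0.00755 and 0.0270). They were -1.09 and -1.04 for Thra (adjusted p = 0.00791 and 0.0166) and -1.28 and -1.34 for Col15a1 (adjusted p = 0.00107 and 0.00113). These genes were picked over the same hearts with the group differences left in. Their lower level is thus part of how they were picked, and these adjusted p values are no separate evidence. Thra overlaps the clock gene Nr1d1 on the opposite strand, and reads of the pair cannot be told apart without strand. For Adrb1 they were Trim13 (0.875), Mrgbp (0.861) and Nim1k (0.859), none of which passed with exercise at ZT12 (-0.94, -0.40 and -0.67, adjusted p = 0.0848, 0.243 and 0.0680). Adra1a was most like Ryr2 (0.909), the calcium release channel of the sarcoplasmic reticulum, Vwa8 (0.909) and Pou2f1 (0.903).

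Downstream of the receptors, Gnas was most like Rnf5 (0.921), Cops7a (0.908) and Adipor1 (0.879), and Grk5 most like Kdr (0.930), a receptor for vascular endothelial growth factor, Stk24 (0.896) and Prune1 (0.895). Adcy5 was most like Myo18b (0.965), an unconventional myosin of striated muscle, and Sun2 (0.962), and Adcy6 like Mafg (0.982), Ranbp10 (0.967) and Gtf2i (0.966). Between the 7 genes themselves the correlation was highest for Adcy5 with Adcy6 (0.857) and Adra1b with Adcy5 (0.774), and Adra1a with Adra1b was -0.10. These correlations share libraries and flow cells and include the group differences and the GC trend, so they are descriptions only.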

How the data were processed

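The authors deposited whole-number read counts per Ensembl gene for 24 heart libraries, 6 mice in each of 4 groups, with no normalization. Libraries were poly-A selected, per the labels' protocols. Reads were trimmed with Trimmomatic 0.39, aligned to GRCm39 with HISAT2 2.2.1 and assigned to genes with featureCounts 2.0.1 (all per the submitters' processing notes). Tool settings, gene annotation and strand handling: not given in the sources used here. Symbols came from a GRCm38 annotation matched by Ensembl identifier (257 identifiers, with 0.00128% of counts, had none). Exon lengths, transcript GC content and overlaps between genes came from GENCODE on that build, while reads were aligned to GRCm39.

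The main test was the robust quasi-likelihood F test of edgeR 4.0.16 (R 4.3.3) on the 15294 genes that filterByExpr kept, with TMM scaling. A single model held all 24 libraries, with a mean per group, a flow cell term and thus 19 residual degrees of freedom. Unless another tool is named, an adjusted p is from this test, adjusted by Benjamini-Hochberg over those genes, and passing means an adjusted p under 0.05. Fold changes are log2 with SE, approximate 95% intervals are normal, and log2 CPM used a prior count of 2. A count of 3, taken as the floor, was 0.130 to 0.575 CPM. Labels name separate biological replicates, and among 60 library pairs within groups the chi-square was never below 13.3 per degree of freedom, so none looked deposited more than once. The edgeR script was tested on simulated data.

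The genes and lists were chosen with earlier results of these data known. All 8 genes were named whether or not they passed, Adrb3 from the fit with no filter, and from the pathway list up to 3 genes per role and comparison that passed, with the smallest p. Some genes that these rules name are not reported here. Alternatives were scaling by DESeq2 size factors or by library totals alone, mitochondrial genes left out, no filter or a stricter one (1 CPM or more in 6 or more libraries), limma-voom (limma 3.58.1), DESeq2 1.42.0, a fit without flow cell, fits within a flow cell, fits to only the groups compared, a replicate block, GC offsets, 2 surrogate variables (sva 3.50.0), and leaving out libraries. The comparisons between flow cells and the receptor and cyclase ratios were added after the data were seen.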

Additional observations from a re-analysis of the deposited data

Results flagged for a closer look

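In 5 of 32 sets of 6 hearts (8 genes in 4 groups), the highest heart stood farther from the others than Dixon's 95% critical value allows, and chance alone flags about 1 in 20 such sets. Adrb1 was at 15.9 CPM in ZT12-SED 1, where the other hearts of the group held 7.60 to 9.33 CPM. Adrb3 was at 0.977 CPM in ZT0-SED 6 and at 1.38 CPM in ZT12-SED 6. Adcy5 was at 50.1 CPM in ZT0-SED 6, where the others held 23.5 to 30.4 CPM, and Adcy6 was at 245 CPM in ZT12-EX 6, where the others held 50.3 to 121 CPM. The libraries ZT0-SED 6, ZT12-SED 6 and ZT12-EX 6 are among those with skeletal muscle transcripts, and ZT12-SED 1 is among the 3 least correlated with the rest.

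The difference by time of day in sedentary mice was itself different between the flow cells for 2 genes, by the test of flow cell 2 minus flow cell 1. This difference was 1.31 for Adra1b (adjusted p = 0.0111) and 1.50 for Adcy5 (adjusted p = 0.0221) on the log2 scale, and 13.1% of all genes passed that test.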

How the results depend on the processing

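The fall of Adra1b at ZT12 kept its direction under every alternative, in sedentary and in exercised mice, and its call under all but the fits without the flow cell term and on flow cell 2 alone. The fall of Adrb1 with exercise at ZT12 kept its direction throughout and its call in 6 of 16 alternatives. Of the 7 genes tested, 1 passed with exercise at ZT12, and 0 did with library totals without TMM, limma-voom, no flow cell term, flow cell 1 alone, flow cell 2 alone, the replicate block, the compared groups alone, GC offsets, 2 surrogate variables or without the 3 least correlated libraries. By time of day in sedentary mice the count of 1 became 0 without the flow cell term and on flow cell 2 alone, and 2 on flow cell 1 alone and with 2 surrogate variables. In exercised mice it became 0 without the flow cell term and on flow cell 2 alone, 2 with DESeq2, GC offsets and without the 3 least correlated libraries, and 3 with 2 surrogate variables. Between flow cells the count of 6 became 3 with GC offsets, 2 with 2 surrogate variables, 4 without the libraries with skeletal muscle transcripts and 5 with library totals or no filter, and the count of 2 for the flow cell difference by time of day in sedentary mice became 0 with GC offsets and 0 without the 3 least correlated libraries. Leaving out 1 library gave 0 to 1 gene with exercise at ZT12 and 1 to 2 by time of day in exercised mice. The share of all genes that passed under each alternative is not given here, so a higher count says nothing particular about the 7 genes.

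Estimates turned sign 62 times, 2 of them past the threshold, both between flow cells (Gnas with GC offsets, adjusted p = 0.00054, and Adcy6 with 2 surrogate variables, adjusted p = 0.0234). The causes were not tested. Library totals without TMM moved the median of all genes from 0.064 to 0.20 with exercise at ZT12, from -0.0071 to -0.18 by time of day in sedentary mice, from 0.015 to 0.12 for exercise by time of day and from -0.018 to 0.25 between flow cells. In that fit Gnas was 0.065 and Grk5 0.065 with exercise at ZT12, Adrb1 -0.25 by time of day in sedentary mice and Adra1a 0.096 between flow cells. With limma-voom Adra1a was -0.0048 with exercise at ZT12 and -0.0092 by time of day in exercised mice, and Adrb1 -0.12 in sedentary mice. Adrb1 in sedentary mice by time of day was -0.037 without the flow cell term, -0.029 in the compared groups alone, -0.022 without mitochondrial transcripts and -0.020 with no filter. Without the flow cell term the change by time of day in the exercise effect was -0.053 for Adra1b and -0.060 for Adcy5.

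On flow cell 1 alone Grk5 was -0.027 with exercise at ZT0 and 0.0018 at ZT12, and exercise by time of day was 0.60 for Adcy6 and 0.029 for Grk5. On flow cell 2 alone exercise gave Adra1b -0.0029 and Gnas -0.0032 at ZT0 and Adra1b -0.13 at ZT12, exercise by time of day was -0.12 for Adra1b and -0.26 for Adcy5, and time of day in sedentary mice was -0.45 for Adrb1, 0.0018 for Gnas, 0.11 for Adcy5 and 0.42 for Adcy6. GC offsets gave Gnas -0.0041 with exercise at ZT0, Adra1b -0.12 at ZT12, -0.16 (Adra1b) and -0.24 (Adcy5) for exercise by time of day, 0.61 (Gnas), 0.085 (Adcy5) and 0.24 (Adcy6) by time of day in sedentary mice, and -0.72 (Adrb1), -0.90 (Gnas) and -0.19 (Adcy5) between flow cells. With 2 surrogate variables exercise gave Adra1b -0.16 and Grk5 -0.11 at ZT0 and Adra1a -0.026, Adra1b -0.20, Adcy5 -0.037 and Adcy6 -0.016 at ZT12. In that fit exercise by time of day was -0.039 for Adra1b, -0.049 for Adcy5 and 0.018 for Grk5, time of day was -0.50 for Adrb1 and 0.28 for Adcy6 in sedentary mice and 0.18 for Adcy6 in exercised mice, and the flow cells differed by -0.0022 for Adra1b, -0.19 for Adcy5 and -0.56 for Adcy6.

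Without the 3 least correlated libraries Adra1b was -0.10 with exercise at ZT12, exercise by time of day was -0.17 for Adra1b and -0.20 for Adcy5, time of day in sedentary mice was -0.37 for Adrb1 and 0.16 for Adcy6, and the log2 ratio of Adcy5 to Adcy6 changed by 0.083 with exercise at ZT12 (-0.062 with all libraries). Without the libraries with skeletal muscle transcripts Grk5 was -0.043 with exercise at ZT0, Adra1a -0.16 at ZT12 and -0.12 by time of day in exercised mice, and exercise by time of day -0.21 for Adra1b and -0.12 for Adcy5. Leaving out 1 library at a time, exercise gave Adra1b -0.065 to 0.14 and Gnas -0.0066 to 0.14 at ZT0, and Adra1a -0.095 to 0.33, Adra1b -0.037 to 0.20 and Grk5 -0.16 to 0.010 at ZT12. Exercise by time of day ranged from -0.11 to 0.16 for Adra1b, -0.053 to 0.25 for Adcy5 and -0.28 to 0.099 for Adcy6, and time of day from -0.26 to 0.13 for Adrb1 and -0.32 to 0.052 for Adcy6 in sedentary mice and -0.099 to 0.32 for Adra1a in exercised mice.

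The count of other pathway genes that passed varied with the setting: with exercise at ZT0 it was 2 and ranged from 0 to 5, with exercise at ZT12 0 and from 0 to 2, by time of day in sedentary mice 6 and from 0 (flow cell 2 alone) to 52 (flow cell 1 alone, 23 higher and 29 lower), and in exercised mice 4 and from 0 to 19 (2 surrogate variables). DESeq2 called 28 in sedentary mice and 9 in exercised mice. Leaving out 1 library gave 0 to 3 with exercise at ZT0 (0 without ZT0-SED 1 or 2 or any of ZT0-EX 2 to 6), 1 to 26 by time of day in sedentary mice (23 without ZT0-SED 6, 26 without ZT12-EX 4, within 1.5 times of 6 in 5 of 24 fits) and 2 to 6 in exercised mice. ZT12-EX 4 is in neither group of the sedentary comparison. The counts under these settings stand without the share of all genes in the same setting, so they are not read as a trait of the pathway. Replicate numbers 1 to 6 are shared by the groups, and no label says that a number marks a shared day or litter. Of the 6 same-numbered pairs, 5 correlated above 0.1 for ZT12-SED with ZT12-EX (0.056 to 0.48), and 1 to 4 did for each other pair of groups, so pairing was not taken as shown. The highest same-numbered correlation was 0.78, for ZT0-SED with ZT12-EX, whose pairs ran from -0.30. Set against each of the other groups in turn, the 24 libraries correlated best with their own number in 28 of 72 cases. Each case offered the 3 libraries of the same flow cell, so chance alone picks the own number in 1 of 3. With the replicate block Adrb1 with exercise at ZT12 was -1.11 (adjusted p = 0.0688) and Adra1b by time of day -1.20 (adjusted p = 0.00349) and -1.18 (adjusted p = 0.00613). Depth limits Adrb3, Adra1d and the alpha-2 receptors most.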
